A study of Homo sapiens with 15 samples.

Results

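The endosomal sorting machinery of MDA-MB-231 spheroids was followed through 43 genes that were chosen by name. They encode the retromer core and the sorting nexins that work with it, subunits of the ESCRT complexes with VPS4 and ALIX, subunits of the HOPS and CORVET tethers, the RAB GTPases of early, recycling and late endosomes, the EHD recycling ATPases and effectors of RAB5. All 43 were among the 59608 gene symbols listed, and all 43 had a mean of at least 10 normalised counts over the 15 libraries, as did 15233 genes in all, so no member was lost to the filter on low values. The choice used no measured value of these genes, but it was made with earlier results of the same libraries known.

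Cargo that enters an endosome is either sent back or destroyed. Retromer, with its sorting nexins, returns receptors to the trans-Golgi network or the cell surface, and the EHD ATPases reshape and cut the tubules that carry recycled cargo. The ESCRT complexes instead capture ubiquitinated receptors and bud them into the endosome's interior, after which RAB7 and the HOPS tether bring about fusion with the lysosome. RAB5 marks the early endosome on which these routes part.

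MDA-MB-231 is an established line from a triple-negative breast cancer that forms compact spheroids, and ZJ-101 is a synthetic analog of superstolide A, a natural product of a marine sponge. Spheroids were grown for 72 h and then kept for 24 h with 0.1% DMSO, the vehicle, or with ZJ-101 at 0.5, 5, 50 or 500 nM, with 3 libraries in each of the 5 groups. Each library came from the pooled spheroids and loose cells of one 96-well plate, so all groups share 1 cell line, and n counts plates. Poly(A) RNA was sequenced, and the libraries held 7773325 to 10065633 reads in genes (median 9108870).

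The identity of the line was checked on marker genes. The 8 mesenchymal-like markers of the line, such as VIM and CD44, summed to 44448 to 50162 normalised counts in every library, 6 leukocyte markers summed to at most 61.1 and 6 endothelial markers to 177 to 256. Of 8 luminal markers listed as low in this line, ESR1, PGR and FOXA1 had at most 1.89 normalised counts in any library and CDH1 at most 20.8, but the list summed to 11741 to 13657, mostly KRT8 (10254 to 12056) and ERBB2 (1082 to 1314), which goes against its name. Fibroblast markers (14 genes) were uneven: their sum was 5206 in the second 0.5 nM library, 3803 in the second 5 nM library and 4295 in the first 500 nM library, against 1143 to 1277 in the DMSO libraries. At 500 nM the other two libraries held 734 and 833, and the 50 nM libraries held 669.7 to 716. OGN was at 0 in all 15 libraries, while COL3A1 had 208, 148 and 207 normalised counts in those 3 libraries, against at most 2.01 with DMSO. Smaller amounts were seen elsewhere: COL3A1 had 18.6 in the third 0.5 nM library, 17.1 in the first 5 nM library and 20.8 and 22.9 in the second and the third 500 nM library. In the latter 2, COL1A1 (216 and 232, against 138 to 140 with DMSO), DCN (4.72 and 6.88, against 0) and POSTN (3.78 and 2.29, against 0) were also higher. MFAP5 and TWIST2 were at 0 there, FAP stayed near its DMSO values, LUM and COL1A2 did not exceed theirs, and PDGFRB lay below. So all 3 libraries at 500 nM held some fibroblast transcripts, though not every marker showed it. The sum hides these amounts, since COL6A3 was at 58.6 and 72.2 in the second and the third 500 nM library, against 452 to 571 with DMSO. The part of this RNA in the results below was not tested. Each count of called members was also made without the 3 libraries richest in it, which does not remove the smaller amounts at 500 nM. In pooled spheroids, less RNA per cell and fewer cells of a kind cannot be told apart.

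Expression in the vehicle was compared between members per kilobase of the canonical transcript. RAB7A, the GTPase of late endosomes, had 1237 ± 29.7 normalised counts per kilobase with DMSO (SD, n = 3), and CHMP4B, the main filament subunit of ESCRT-III, had 1196 ± 42.98, so that the spreads of these 2 genes overlapped. CHMP2A followed with 1083 ± 30.6. At the other end stood the cargo adaptor SNX27 with 41.0 ± 1.93 and the RAB5 effector EEA1 with 47.2 ± 3.96 normalised counts per kilobase. Between replicates the members were steady, with a median coefficient of variation of 3.81% over all members and groups.

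Every dose was compared with DMSO in limma on log2 of the normalised count plus 1, and the threshold for a call was a p of 0.05 after Benjamini-Hochberg adjustment over the 15233 genes. At 0.5 nM, 0 of 43 members were called by limma, 0 by edgeR and 0 by DESeq2, with 4 at an unadjusted p below 0.05, and 0.0722% of all genes were called. At 5 nM, 3 members (6.98%) were called, 2 higher and 1 lower, against a background of 6.91% of all genes, of which 3.63% were higher and 3.28% lower. At 50 nM there were 7 called members (16.3%), 4 higher and 3 lower, beside 20.6% of all genes, 10.9% higher and 9.66% lower. At 500 nM, 11 members (25.6%) were called, 8 higher and 3 lower, beside 32.4% of all genes, 16.2% in each direction. The shares of called members thus lay near or below that of all genes at each dose. At 5, 50 and 500 nM they lay below those of genes with a mean within the members' range, 10.5%, 30.9% and 45.2%. Without the 3 libraries rich in fibroblast transcripts the counts were 0, 4, 7 and 10 from 0.5 to 500 nM. Of all 15233 genes, 6, 890, 3136 and 4466 were then called, against 11, 1053, 3134 and 4933 with every library. The 3 libraries of the 500 nM group and the 3 of the DMSO group did not overlap for 13 members, 8 higher and 5 lower, that is 30.2%, beside 41.4% of all genes.

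**Figure D1:**
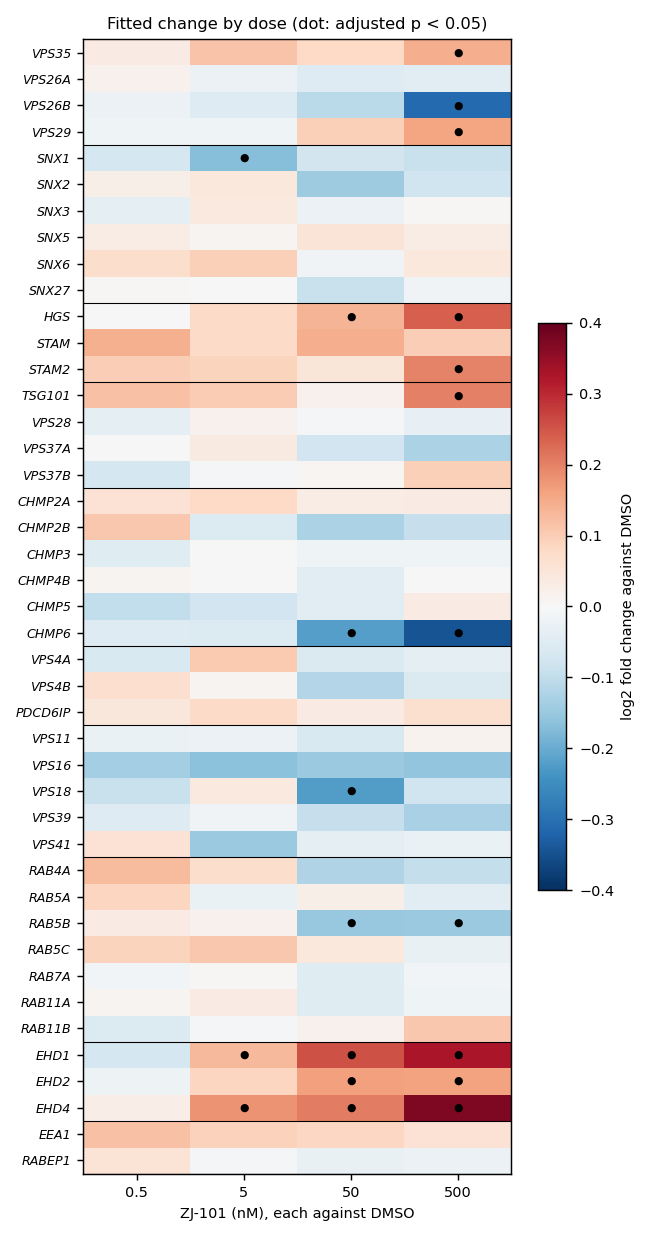
Fitted log2 fold change of each of the 43 members (rows, in the order of the subgroups) at 0.5, 5, 50 and 500 nM ZJ-101 against DMSO (columns), with a dot where the adjusted p was below 0.05. Colour deepens with dose for EHD1, EHD4, CHMP6 and VPS26B, and most rows stay pale.

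The changes were small. At 500 nM the largest rise among members was 0.37 on the log2 scale (EHD4) and the largest fall -0.35 (CHMP6), and 0 of 43 changed by 1.5-fold or more, whereas 10.7% of all genes tested did. The median absolute log2 fold change of the members was 0.079, beside 0.16 for all genes tested. Since the members are well expressed, they were also set beside the 6640 genes with a mean within the members' range, 250.3 to 3657 normalised counts: among these 45.2% were called at 500 nM, 7.08% changed by 1.5-fold or more and the median absolute change was 0.12. These figures describe sizes, and no test of the list was made. Of the 32 members not called at 500 nM, 31 had a 95% confidence interval that lay wholly inside a 1.25-fold change in either direction; the exception was VPS16, whose interval reached down to -0.32. The p-values measure the spread between plates.

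**Figure D2:**
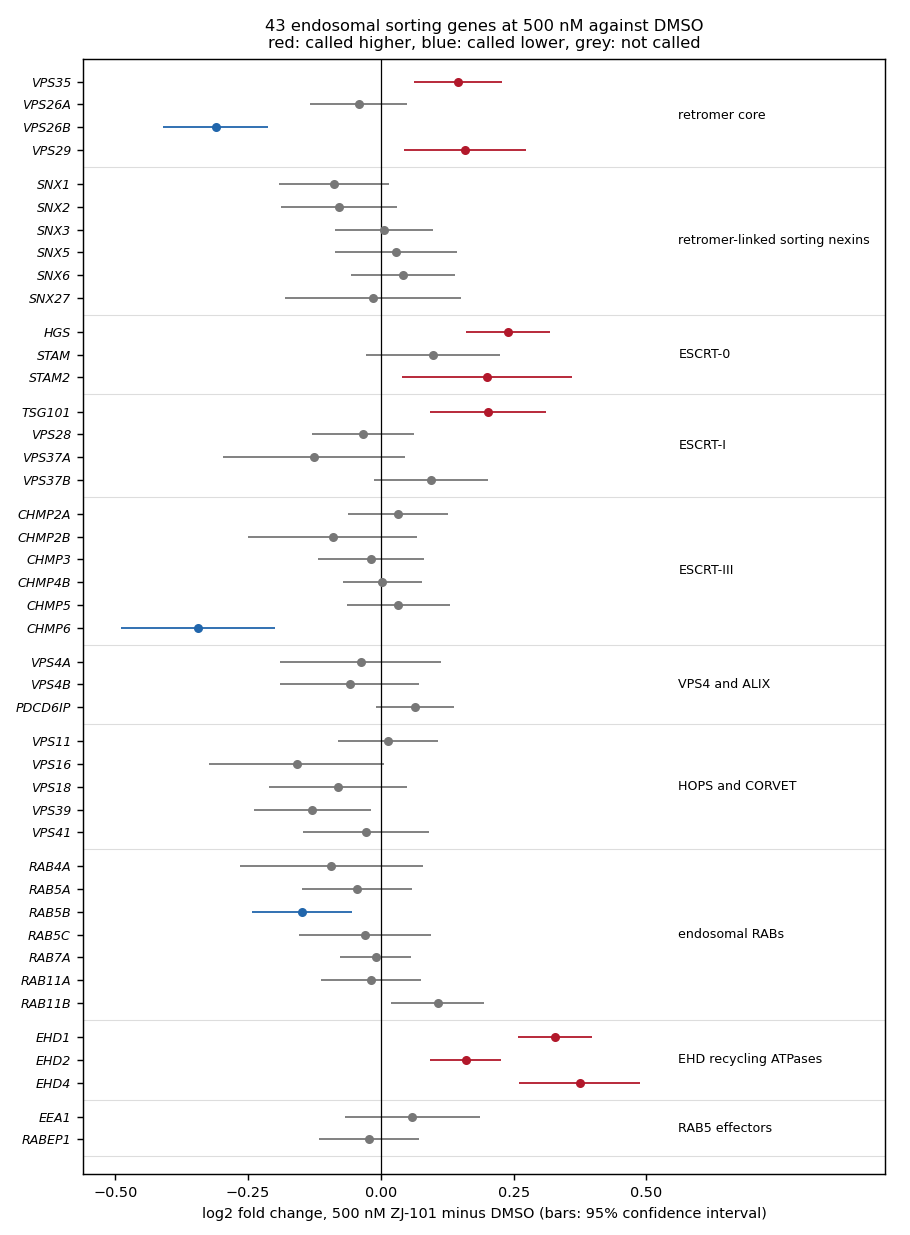
Log2 fold change of each member at 500 nM ZJ-101 minus DMSO (points) with its 95% confidence interval (bars), grouped by complex, where red is called higher, blue called lower and grey not called. The 3 EHD genes stand to the right of 0, and VPS26B and CHMP6 stand farthest to the left.

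EHD1, EHD2 and EHD4 encode membrane-bending ATPases: EHD1 acts on recycling endosomes, EHD2 holds caveolae at the plasma membrane, and EHD4 acts on early endosomes. All 3 were called higher at 50 and 500 nM, EHD1 and EHD4 also at 5 nM. Of all genes, 3.63%, 10.9% and 16.2% were called higher at 5, 50 and 500 nM. EHD1 (ENSG00000110047.18, hg38 chr11:64851642-64888296) had 3538, 3262 and 3191 normalised counts in the DMSO libraries, 3139.5, 3079.8 and 3282 with 0.5 nM, 3741, 3394 and 3805 with 5 nM, 4034, 3919.8 and 3951 with 50 nM and 4206, 4146 and 4173 with 500 nM. All 3 libraries at 50 nM and all 3 at 500 nM lay above every DMSO library, whereas 1 of the 3 libraries at 5 nM lay inside the DMSO range. At 500 nM EHD1 was 1.25-fold higher (log2 fold change 0.33, SE 0.035, 95% confidence interval 0.26 to 0.40, adjusted p = 7.15e-12), at 50 nM 1.19-fold (log2 fold change 0.25, adjusted p = 2.77e-08) and at 5 nM 1.09-fold (log2 fold change 0.13, adjusted p = 0.0104). It also rose in the step from 0.5 to 5 nM (log2 fold change 0.20, adjusted p = 3.10e-05) and from 5 to 50 nM (log2 fold change 0.12, adjusted p = 0.00632). The 5 nM call was lost without the second or the third DMSO library or the first or the third 5 nM library (adjusted p 0.0794 to 0.115). Leaving out the second 5 nM library, one of those rich in fibroblast transcripts and the lowest for EHD1 at that dose, ended the call of the step from 5 to 50 nM (adjusted p = 0.152).

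EHD4 (ENSG00000103966.11, hg38 chr15:41895933-41972557) had 515, 509 and 549 normalised counts in the DMSO libraries, 538, 516 and 547 with 0.5 nM, 582, 576 and 624 with 5 nM, 589.6, 608 and 616 with 50 nM and 637, 680.1 and 724 with 500 nM. Its treated libraries lay above all DMSO libraries at 5, 50 and 500 nM. It was 1.30-fold higher at 500 nM (log2 fold change 0.37, SE 0.058, 95% confidence interval 0.26 to 0.49, adjusted p = 3.90e-08) and 1.15-fold at 50 nM (log2 fold change 0.21, adjusted p = 0.00458). The calls at 5 nM (log2 fold change 0.18, adjusted p = 0.0404) and in the step from 50 to 500 nM (log2 fold change 0.17, adjusted p = 0.0371) were lost with no filter on low values (adjusted p 0.0968 and 0.0920) and with DESeq2 (adjusted p 0.132 and 0.0898). The first was also lost in a fit to the groups compared, with edgeR, and without the first or second DMSO library or the first or the third 5 nM library (adjusted p 0.0631 to 0.209), and the second without any of the 50 nM libraries or the second or the third 500 nM library (adjusted p 0.0543 to 0.281). On the opposite strand another gene covers 45.7% of the exon bases of EHD4, and the strand setting of the counting is not given in the sources used here, so reads of that gene cannot be told apart from those of EHD4.

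EHD2 (ENSG00000024422.12, hg38 chr19:47713422-47743134) had 2791, 2628 and 2708 normalised counts in the DMSO libraries, 2669, 2661 and 2672 with 0.5 nM, 2954, 2738 and 2933 with 5 nM, 2935, 3092 and 3080.5 with 50 nM and 3105, 3029 and 2942 with 500 nM. The libraries at 50 and at 500 nM did not overlap with those of DMSO, and those 2 doses were close to each other. EHD2 was 1.12-fold higher at 500 nM (log2 fold change 0.16, SE 0.033, 95% confidence interval 0.093 to 0.23, adjusted p = 4.27e-05) and at 50 nM (log2 fold change 0.16, adjusted p = 4.80e-05). The step from 0.5 to 5 nM (log2 fold change 0.11, adjusted p = 0.0311) was not called by edgeR or DESeq2 (adjusted p 0.0629 and 0.0655), nor without any of the 0.5 nM libraries or the first or the third 5 nM library (adjusted p 0.0788 to 0.191). EHD3, the remaining gene of the family and not among the 43, went the other way: it had 57.4, 70.8 and 67.7 normalised counts at 500 nM, against 93.7, 108 and 110.5 with DMSO, and was called lower (log2 fold change -0.67, adjusted p = 4.97e-05).

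**Figure D3:**
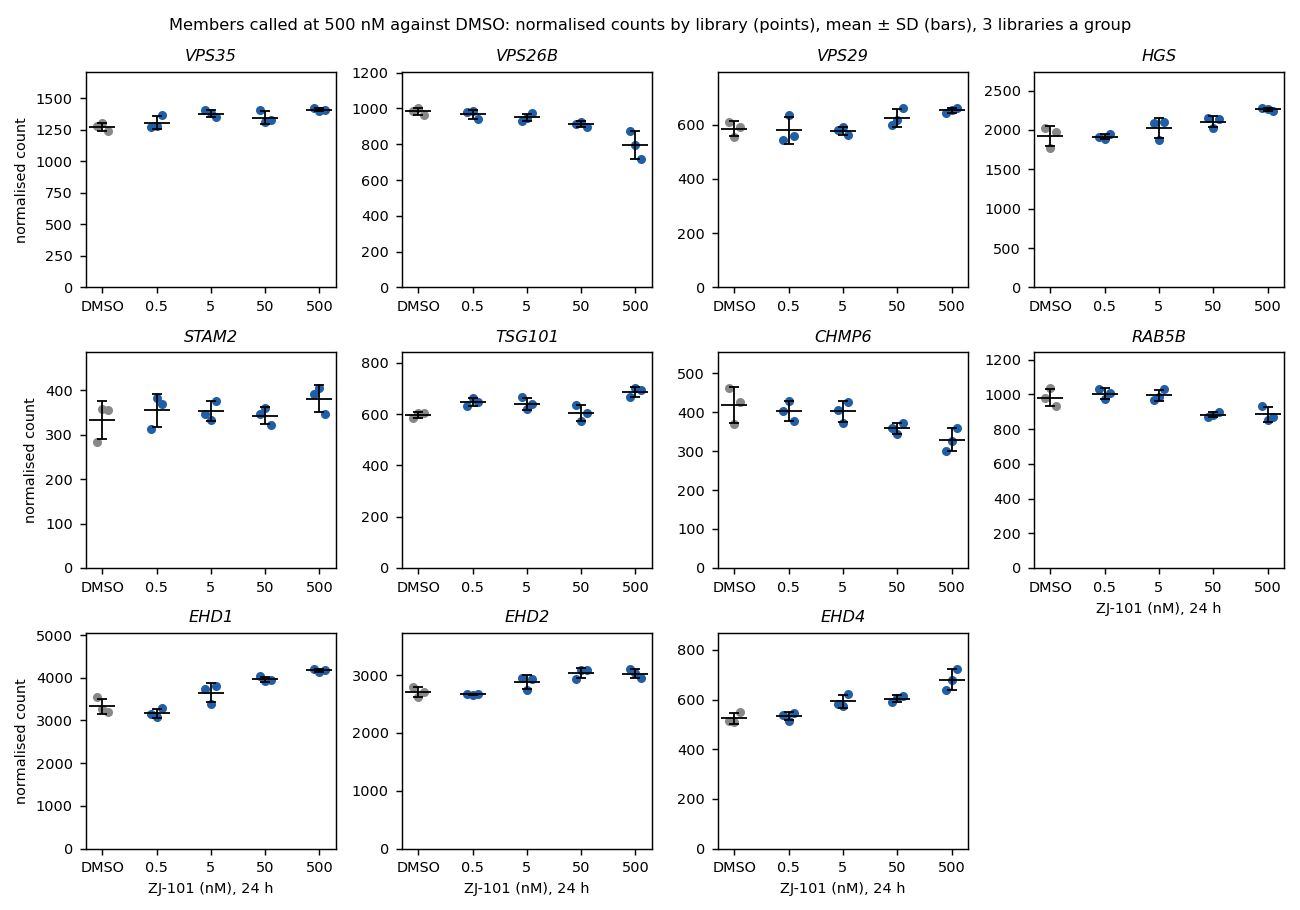
Normalised counts (vertical axes, from 0) of the 11 members called at 500 nM against DMSO, by dose (horizontal axes), where each point is 1 library and bars give the mean ± SD of 3 libraries. EHD1 sits at 4146 to 4206 at 500 nM, above the 3191 to 3538 of DMSO, and VPS26B sits at 718 to 872, below 961 to 1004.

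Promoter windows of 300 bases, from 250 before to 50 after the RefSeq start (GRCh38.p14), are shown for the 3 EHD genes, which rose together, and for VPS26B, which fell. Capitals mark matches to the GC box GGGCGG on either strand, letters recognised by factors of the SP family. The windows are EHD1 at chr11:64879644-64879943 (minus strand), EHD2 at chr19:47713172-47713471 (plus strand), EHD4 at chr15:41972508-41972807 (minus strand) and VPS26B at chr11:134224421-134224720 (plus strand).
EHD1: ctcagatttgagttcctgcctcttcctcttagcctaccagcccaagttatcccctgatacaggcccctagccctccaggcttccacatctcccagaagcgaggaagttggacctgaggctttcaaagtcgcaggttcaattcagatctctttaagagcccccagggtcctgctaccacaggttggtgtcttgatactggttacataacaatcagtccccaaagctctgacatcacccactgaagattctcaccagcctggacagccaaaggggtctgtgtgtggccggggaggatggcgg
EHD2: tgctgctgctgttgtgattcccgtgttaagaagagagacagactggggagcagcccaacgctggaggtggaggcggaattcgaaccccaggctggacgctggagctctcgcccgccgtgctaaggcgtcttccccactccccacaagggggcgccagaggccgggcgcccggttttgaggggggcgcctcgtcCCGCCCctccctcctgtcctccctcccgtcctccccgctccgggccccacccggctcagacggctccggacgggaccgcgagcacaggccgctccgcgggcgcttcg
EHD4: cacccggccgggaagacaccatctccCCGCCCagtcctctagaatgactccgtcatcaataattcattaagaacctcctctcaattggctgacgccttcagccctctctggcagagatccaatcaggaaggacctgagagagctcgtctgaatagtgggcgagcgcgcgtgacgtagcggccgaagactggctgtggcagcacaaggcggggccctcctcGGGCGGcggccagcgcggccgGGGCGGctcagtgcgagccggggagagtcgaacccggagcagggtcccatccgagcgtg
VPS26B: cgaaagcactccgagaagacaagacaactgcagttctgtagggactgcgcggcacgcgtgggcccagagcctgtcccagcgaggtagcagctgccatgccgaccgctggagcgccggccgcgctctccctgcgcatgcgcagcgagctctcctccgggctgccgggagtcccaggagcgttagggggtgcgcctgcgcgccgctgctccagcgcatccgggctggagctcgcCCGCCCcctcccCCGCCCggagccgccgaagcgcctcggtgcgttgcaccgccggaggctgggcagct

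Of the 5 motifs searched on both strands, the E-box CACGTG, the amino acid response element TGATGNAA, the GC box GGGCGG, the TATA box TATAAA and the AP-1 site TGANTCA, the EHD1 window held none, EHD2 held 1 GC box, EHD4 held 3 and VPS26B held 2. For EHD1 the canonical GENCODE transcript starts 1072 bases downstream of the RefSeq start, at chr11:64878621, so that this window does not cover it. For 33 of the 36 members with a window the canonical start lay inside. The GC box was found in 28 of these 36 windows (77.8%), against 45.0% of all 35116 windows, the E-box in 6 (16.7% against 7.26%), the AP-1 site in 2 (5.56% against 7.71%), and the TATA box and the amino acid response element in 0 (11.5% and 3.62% of all windows). The median GC content was 65.2% for the members and 58.7% for all windows. A match is a run of letters and not a site shown to be bound. No window is given for VPS26A, CHMP3, CHMP6, VPS28, VPS37A, VPS18 and RABEP1.

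In the retromer core, VPS35 is the scaffold, VPS29 caps one end of it and VPS26, present as the paralogs VPS26A and VPS26B, binds the other. At 500 nM, 2 of the 4 genes were called higher, 1 was called lower and VPS26A was not called, beside 32.4% of all genes called. VPS26B (ENSG00000151502.11, hg38 chr11:134224671-134247788) had 987, 1004 and 961 normalised counts in the DMSO libraries, 978, 985 and 939 with 0.5 nM, 929, 948 and 972 with 5 nM, 915, 927 and 896 with 50 nM and 872, 795 and 718 with 500 nM. The 500 nM libraries all lay below every other library of the series. It was 1.24 times lower at 500 nM than with DMSO (log2 fold change -0.31, SE 0.050, 95% confidence interval -0.41 to -0.21, adjusted p = 8.77e-08) and had fallen from the neighbouring dose as well (50 to 500 nM, log2 fold change -0.20, adjusted p = 0.00126), a call that ended without the third 500 nM library, the lowest (adjusted p = 0.108). NCAPD3 covers 3.86% of its exon bases on the opposite strand.

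VPS26A had 1040 to 1092 normalised counts at 500 nM, against 1076 to 1144 with DMSO, and a log2 fold change of -0.042 (95% confidence interval -0.13 to 0.049). The log2 ratio of VPS26B to VPS26A was -0.43 ± 0.18 at 500 nM, against -0.16 ± 0.032 with DMSO (SD, n = 3 each), and each 500 nM library lay below each DMSO library. An exact permutation test gave p = 0.1, the smallest that 3 libraries against 3 can give, and 0.4 after adjustment over the 4 paralog pairs compared.

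VPS35 (ENSG00000069329.19, hg38 chr16:46656132-46689518) had 1278, 1308 and 1244 normalised counts in the DMSO libraries, 1273, 1279 and 1368 with 0.5 nM, 1408, 1383 and 1349.5 with 5 nM, 1411, 1309.8 and 1325 with 50 nM and 1425, 1399 and 1408 with 500 nM. Its 500 nM libraries lay above all DMSO libraries (log2 fold change 0.14, SE 0.042, 95% confidence interval 0.061 to 0.23, adjusted p = 0.00368), by 1.11-fold. VPS29 had 611, 555 and 589.6 normalised counts in the DMSO libraries, 542, 635 and 559 with 0.5 nM, 579, 592 and 562 with 5 nM, 598, 615 and 661 with 50 nM and 643, 653 and 662 with 500 nM. The 3 libraries at 500 nM lay just above those of DMSO (log2 fold change 0.16, adjusted p = 0.0258), and a slope over the treated libraries was also called (0.064 per 10-fold dose, adjusted p = 0.0151). The 500 nM call of VPS29 was lost with no filter, with DESeq2 and without the second DMSO, second 500 nM or the third 500 nM library (adjusted p 0.0585 to 0.159), and the slope without the first 0.5 nM library (adjusted p = 0.0627).

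The sorting nexins SNX1 and SNX2 pair with SNX5 and SNX6 to coat tubules, and SNX3 and SNX27 select cargo for retromer. At 500 nM, 0 of these 6 were called by limma, edgeR or DESeq2, beside 32.4% of all genes called by limma. Of the 6, 0 had an unadjusted p below 0.05, and their fold changes ran from -0.089 to 0.042 on the log2 scale. SNX1 had 789.5, 746 and 766 normalised counts in the DMSO libraries, 747, 702 and 743 with 0.5 nM, 659, 724 and 664 with 5 nM, 745, 724 and 720.1 with 50 nM and 726, 726 and 711 with 500 nM. Its lowest values were at 5 nM, where it was called lower (log2 fold change -0.17, SE 0.052, 95% confidence interval -0.27 to -0.066, adjusted p = 0.0291), and at 500 nM its change was -0.089 (adjusted p = 0.200). That call was lost with no filter, in a fit to the groups compared, with DESeq2 and without the first or the third DMSO library or the first or the third 5 nM library (adjusted p 0.0622 to 0.151).

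SNX2 had 616, 669 and 668 normalised counts in the DMSO libraries, 646, 663 and 674 with 0.5 nM, 671, 679.5 and 659.8 with 5 nM, 592, 591 and 585 with 50 nM and 582, 640.4 and 627 with 500 nM. It was lower at 50 nM than at 5 nM without overlap (log2 fold change -0.18, adjusted p = 0.00897), while neither dose was called against DMSO. Another gene model on the same strand covers 25.3% of the exon bases of SNX2, and 36.3% of its 31-base words occur in transcripts of other genes, so its counts are uncertain. SNX3, SNX5, SNX6 and SNX27 were called in no comparison.

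ESCRT-0 is the ubiquitin-binding complex of HGS, also known as HRS, with STAM or STAM2, and it opens the degradative route. HGS and STAM2 were called higher at 500 nM, and STAM was not, beside 16.2% of all genes called higher. HGS (ENSG00000185359.14, hg38 chr17:81683326-81703138) had 2021, 1773 and 1968 normalised counts in the DMSO libraries, 1909, 1887 and 1949 with 0.5 nM, 2089.6, 1875 and 2104 with 5 nM, 2156, 2025 and 2137 with 50 nM and 2281, 2267 and 2242 with 500 nM. The 500 nM libraries lay above every other library of the series. HGS was 1.18-fold higher at 500 nM (log2 fold change 0.24, SE 0.040, 95% confidence interval 0.16 to 0.32, adjusted p = 6.82e-07) and 1.10-fold at 50 nM (log2 fold change 0.13, adjusted p = 0.00821), with a slope of 0.078 per 10-fold dose (adjusted p = 0.000102). The 50 nM call was lost without the second DMSO library, the lowest, or the first 50 nM library (adjusted p 0.200 and 0.0644). ARL16 and other genes cover 25.9% of the exon bases of HGS on the opposite strand, and the same limit of strand holds.

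STAM2 had 283, 358 and 357 normalised counts in the DMSO libraries, 313, 383 and 369 with 0.5 nM, 347, 333 and 377 with 5 nM, 346, 359.7 and 322 with 50 nM and 391, 404 and 346 with 500 nM. The groups overlapped at 500 nM, and the call rested near its threshold (log2 fold change 0.20, SE 0.080, 95% confidence interval 0.040 to 0.36, adjusted p = 0.0478). It was lost under 11 of 24 alternatives, edgeR and DESeq2 among them (adjusted p 0.0802 and 0.146), and without the first DMSO library, which was the lowest of all 15, the change was 0.089 (adjusted p = 0.470). Losing any one of the third 0.5 nM, first 5 nM, first 50 nM, first 500 nM and second 500 nM libraries also ended it (adjusted p 0.0551 to 0.210). STAM had a log2 fold change of 0.098 at 500 nM (95% confidence interval -0.029 to 0.22), with its 3 libraries at 455 to 476 normalised counts, against 427 to 441 with DMSO.

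ESCRT-I hands cargo on, with TSG101 as its ubiquitin-binding subunit. At 500 nM 1 of its 4 genes was called, beside 32.4% of all genes. TSG101 (ENSG00000074319.13, hg38 chr11:18468336-18526951) had 584, 603 and 603 normalised counts in the DMSO libraries, 630.3, 663 and 648 with 0.5 nM, 665, 618 and 638 with 5 nM, 637, 574 and 602 with 50 nM and 666, 699.9 and 693 with 500 nM. All libraries at 500 nM lay above all those of DMSO and of 50 nM. It was 1.15-fold higher at 500 nM than with DMSO (log2 fold change 0.20, SE 0.055, 95% confidence interval 0.092 to 0.31, adjusted p = 0.00205) and higher than at 50 nM (log2 fold change 0.18, adjusted p = 0.0127), the second call being lost without the second 50 nM or the second or the third 500 nM library (adjusted p 0.0508 to 0.131). The values at 0.5 and 5 nM also lay above DMSO, so the level did not follow dose in order.

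VPS37B, another ESCRT-I subunit, was called only for its slope, 0.050 per 10-fold dose (adjusted p = 0.0455). It had 755, 705 and 733 normalised counts in the DMSO libraries, 726, 687 and 677 with 0.5 nM, 686, 756 and 742 with 5 nM, 674, 769 and 762 with 50 nM and 785, 805 and 751 with 500 nM. The call was lost with no filter, with a replicate block, with DESeq2, without the second or the third 0.5 nM, first 5 nM, second or the third 50 nM or any 500 nM library, and without the 3 libraries rich in fibroblast transcripts (adjusted p 0.0527 to 0.173). Another gene model on the same strand covers 29.4% of the exon bases of VPS37B, so its counts are uncertain. VPS28 and VPS37A were called in no comparison. MTMR7 covers 27.4% of the exon bases of VPS37A on the opposite strand, and the same limit of strand holds.

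ESCRT-III subunits polymerise into the filaments that cut the bud neck, and CHMP6 starts that assembly by linking ESCRT-II to CHMP4. Of the 6 genes, only CHMP6 was called at 500 nM, beside 32.4% of all genes. CHMP6 (ENSG00000176108.9, hg38 chr17:80991598-81009517) had 461, 369 and 425 normalised counts in the DMSO libraries, 402, 428 and 377 with 0.5 nM, 406, 372 and 427 with 5 nM, 358, 343 and 373 with 50 nM and 300.2, 327 and 359 with 500 nM. The 500 nM libraries lay below those of DMSO, and at 50 nM 1 library of 3 lay inside the DMSO range. It was 1.27 times lower at 500 nM (log2 fold change -0.35, SE 0.073, 95% confidence interval -0.49 to -0.20, adjusted p = 5.63e-05) and 1.16 times lower at 50 nM (log2 fold change -0.22, adjusted p = 0.0208), with a slope of -0.10 per 10-fold dose (adjusted p = 0.00184). The 50 nM call was lost with DESeq2 and without the first or the third DMSO library or the first or second 50 nM library (adjusted p 0.0551 to 0.226), and the slope without the 3 libraries rich in fibroblast transcripts (adjusted p = 0.0646). An unnamed gene covers 21.5% of its exon bases on the opposite strand.

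The other ESCRT-III genes stayed close to DMSO. CHMP2A, CHMP2B, CHMP3, CHMP4B and CHMP5 had log2 fold changes of -0.091 to 0.033 at 500 nM. CHMP4B, the filament subunit, had 1865 to 1971 normalised counts at 500 nM, against 1836 to 1959 with DMSO, with a 95% confidence interval of -0.072 to 0.076 for the log2 fold change. VPS4A and VPS4B, the ATPases that dismantle the filaments, and PDCD6IP, which encodes the adaptor ALIX, were called in no comparison. COG8 and PDF cover 30.5% of the exon bases of VPS4A on the opposite strand, and 31.8% of its 31-base words are shared with other genes. PDCD6IP had 2043, 1959 and 1999.9 normalised counts in the DMSO libraries, 2107, 2041 and 2043 with 0.5 nM, 2125, 2161 and 2049 with 5 nM, 2080.1, 2063 and 1993 with 50 nM and 2111, 1973 and 2196 with 500 nM. Its groups overlapped, and its change at 500 nM (log2 fold change 0.064, adjusted p = 0.190) passed the threshold only without the second 500 nM library (log2 fold change 0.11, adjusted p = 0.0393).

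HOPS and CORVET share the core subunits VPS11, VPS16 and VPS18, and VPS39 and VPS41 are particular to HOPS, which tethers late endosomes to lysosomes. At 500 nM 0 of these 5 genes were called by limma, beside 32.4% of all genes, with 1 at an unadjusted p below 0.05. edgeR and DESeq2 called 0 each, and 4 of the 5 fitted values lay below 0. VPS39 had 659, 655 and 628 normalised counts in the DMSO libraries, 599, 630.4 and 644 with 0.5 nM, 625, 653 and 643 with 5 nM, 627, 595 and 597 with 50 nM and 609, 566 and 601 with 500 nM. Its 500 nM libraries lay below those of DMSO, but the difference was not called (log2 fold change -0.13, SE 0.055, 95% confidence interval -0.24 to -0.019, adjusted p = 0.0638).

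VPS18 had 530.3, 471 and 477 normalised counts in the DMSO libraries, 463, 464 and 459.6 with 0.5 nM, 476, 489 and 554 with 5 nM, 409, 388 and 471 with 50 nM and 467, 473 and 456 with 500 nM. It was called lower at 50 nM against DMSO (log2 fold change -0.22, SE 0.066, 95% confidence interval -0.35 to -0.093, adjusted p = 0.00695) and against 5 nM (log2 fold change -0.26, adjusted p = 0.00144), whereas its change at 500 nM was -0.080 (adjusted p = 0.384). The call against DMSO ended without the first DMSO library, the highest of that group, or the second 50 nM library, the lowest of that group (adjusted p 0.0951 and 0.110). VPS41 had 624, 664 and 564 normalised counts in the DMSO libraries, 667, 587 and 672 with 0.5 nM, 543, 589 and 534 with 5 nM, 589, 631 and 580.1 with 50 nM and 630.1, 588 and 594 with 500 nM. It was lower at 5 nM than at 0.5 nM (log2 fold change -0.21, adjusted p = 0.0175) with overlapping libraries, and the call ended with DESeq2 or without the first or the third library of either dose (adjusted p 0.0546 to 0.129). Without the 3 libraries rich in fibroblast transcripts the same step came to -0.31 (adjusted p = 0.00196).

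Among the RAB GTPases, RAB5A, RAB5B and RAB5C mark early endosomes, RAB4A and the RAB11 pair serve fast and slow recycling, and RAB7A serves late endosomes. RAB5B was the only one of the 7 called at 500 nM, beside 32.4% of all genes. RAB5B (ENSG00000111540.16, hg38 chr12:55973913-55996683) had 978, 1034 and 932 normalised counts in the DMSO libraries, 1032, 971 and 1006 with 0.5 nM, 968, 985 and 1028 with 5 nM, 868, 882 and 897 with 50 nM and 933, 854 and 868 with 500 nM. The 3 libraries at 50 nM lay below all DMSO libraries, and at 500 nM the first library, at 933, just reached into the DMSO range. It was 1.11 times lower at 500 nM (log2 fold change -0.15, SE 0.048, 95% confidence interval -0.24 to -0.054, adjusted p = 0.00981) and at 50 nM (log2 fold change -0.15, adjusted p = 0.0130), and lower at 50 than at 5 nM (log2 fold change -0.17, adjusted p = 0.00492). Both calls against DMSO were lost without the second DMSO library, the highest, and without 1 further library each, the first at 50 nM or the second at 500 nM (adjusted p 0.0623 to 0.133).

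Its paralogs were not called: RAB5A had a log2 fold change of -0.045 (95% confidence interval -0.15 to 0.058) and RAB5C of -0.030 (-0.15 to 0.094) at 500 nM. The log2 ratio of RAB5B to RAB5A was 0.27 ± 0.15 at 500 nM, against 0.38 ± 0.12 with DMSO (SD, n = 3 each; exact permutation p = 0.4), and that of RAB5B to RAB5C was 0.93 ± 0.14, against 1.05 ± 0.099 (exact permutation p = 0.4). With 3 libraries against 3 this test cannot give a p below 0.1, so it could not have called a shift of RAB5B relative to its paralogs. In RAB5C 46.0% of the 31-base words are shared with other genes.

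RAB11B had 1419, 1306 and 1253 normalised counts in the DMSO libraries, 1336, 1279 and 1213 with 0.5 nM, 1329, 1288 and 1342 with 5 nM, 1374, 1279 and 1373 with 50 nM and 1469, 1349.8 and 1462 with 500 nM. A slope of 0.051 per 10-fold dose was called (adjusted p = 0.0156), but not 500 nM against DMSO (log2 fold change 0.11, adjusted p = 0.0518), where the groups overlapped. The slope was lost without the third 0.5 nM, first 500 nM or the third 500 nM library (adjusted p 0.0675 to 0.0742) and without the 3 libraries rich in fibroblast transcripts (adjusted p = 0.149). RAB11A differed by -0.019 at 500 nM (95% confidence interval -0.11 to 0.076). The log2 ratio of RAB11B to RAB11A was 0.66 ± 0.13 at 500 nM, against 0.53 ± 0.057 with DMSO (SD, n = 3 each; exact permutation p = 0.3). RAB4A had 241, 275 and 260.2 normalised counts in the DMSO libraries, 259, 267 and 325 with 0.5 nM, 291, 278 and 247 with 5 nM, 260.5, 209 and 247 with 50 nM and 254, 229.5 and 243 with 500 nM. Its slope of -0.085 per 10-fold dose (adjusted p = 0.0424) rested in part on the third 0.5 nM library, the highest of all 15, without which it was -0.058 (adjusted p = 0.212). It was also lost with no filter, with DESeq2, without the 3 libraries rich in fibroblast transcripts and without any of the first 2 libraries at 5 nM or the last 2 at 50 and at 500 nM (adjusted p 0.0521 to 0.102). RAB7A, the most abundant member per kilobase, was called in no comparison (log2 fold change -0.010 at 500 nM, 95% confidence interval -0.077 to 0.057).

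The RAB5 effectors EEA1, a tether between early endosomes, and RABEP1 were called in no comparison. EEA1 had 421, 498 and 473 normalised counts in the DMSO libraries, 463, 507 and 541 with 0.5 nM, 507, 500.4 and 475 with 5 nM, 514, 496 and 461 with 50 nM and 500.0, 462 and 486 with 500 nM. At every dose its libraries overlapped with those of DMSO (500 nM, log2 fold change 0.059, SE 0.064, 95% confidence interval -0.068 to 0.19, adjusted p = 0.533), and the sign turned without the first DMSO library, the lowest of all 15 (log2 fold change -0.0083). RABEP1 differed by -0.023 at 500 nM (95% confidence interval -0.12 to 0.071). NUP88 covers 53.6% of the exon bases of RABEP1 on the opposite strand, and the same limit of strand holds.

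Across the tests, 18 of the 43 members were called at least once and 25 never. The share of all genes called at least once was not counted, so no result about the list is read from this. Between neighbouring doses, 3 members were called from 0.5 to 5 nM (background 7.06% of all genes), 4 from 5 to 50 nM (18.5%) and 3 from 50 to 500 nM (12.7%), that is 6.98%, 9.30% and 6.98% of the members. The F-test over the 5 groups called 14 members (32.6%), beside 39.0% of all genes, and the slope per 10-fold dose called 11 (25.6%), 7 rising and 4 falling, beside 27.9%.

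Other genes of the same routes were taken from 6 lists, which hold 115 genes, 111 of them tested. Of 16 further ESCRT genes, 0 were called at 500 nM by limma, beside 32.4% of all genes. Of these 16, 2 had an unadjusted p below 0.05, edgeR called 1 and DESeq2 0, and the log2 fold changes ran from -0.16 to 0.21. In the list of WASH, retriever and other sorting nexins, 2 of 21 were called higher and 1 lower (14.3%), beside 32.4% of all genes. SNX8 (log2 fold change 0.25) and WASHC3 (0.27), a subunit of the WASH complex that drives actin assembly on endosomes, rose, and SNX17, the adaptor of retriever, fell by 0.11. Among other tethers and RAB7 machinery, 5 of 18 were higher and 1 lower (33.3%), beside 32.4% of all genes. Those called higher included BORCS5 (0.52), a subunit of the BORC complex that positions lysosomes, and OSBPL1A (0.26). The call of SNX17 was lost with no filter, with DESeq2 and without the first or the third DMSO library or the second or the third 500 nM library (adjusted p 0.0604 to 0.0974), and that of WASHC3 with DESeq2 and without the first DMSO or the third 500 nM library (adjusted p 0.0634 to 0.114). CCZ1B, a subunit of the RAB7 exchange factor, was also called (0.57), but CCZ1 is a near-identical copy and the split of reads between them is uncertain.

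Of 21 RAB5 regulators, 2 were called higher and 4 lower at 500 nM (28.6%), beside 32.4% of all genes. RIN2, an exchange factor for RAB5, had a log2 fold change of -0.34, MTMR4, a phosphoinositide phosphatase of endosomes, -0.35, and RABEP2 -0.30, whereas RIN1, a paralog of RIN2, was at 0.23. Among recycling RABs and partners, 0 of 21 were higher and 3 lower (14.3%), beside 32.4% of all genes. The 3 were EHD3, PACSIN2 (-0.22), which binds EHD proteins, and RAB31. RAB31, a GTPase of trans-Golgi and endosomal traffic, had 1008, 1037 and 1062 normalised counts at 500 nM, against 1685, 1742 and 1699 with DMSO, and was 1.65 times lower (log2 fold change -0.72, adjusted p = 1.26e-29). Over the 5 lists without cargo, 18 of 97 genes (18.6%) were called at 500 nM, 9 in each direction, below the 32.4% of all genes, with a median log2 fold change of 0.0041.

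The last list, named endosomal cargo receptors, holds receptors and other membrane proteins that this machinery sorts, SLC2A1 and STEAP3 among the latter. Of its 14 genes, 12 (85.7%) were called at 500 nM, 5 higher and 7 lower, beside 32.4% of all genes. At 50 nM 10 (71.4%) were called, beside 20.6%, and at 5 nM 3 (21.4%), beside 6.91%. Of genes with a mean within the members' range, 45.2%, 30.9% and 10.5% were called at 500, 50 and 5 nM. Some genes of the list, such as SLC2A1, lie above that range. At 500 nM 6 of the 14 (42.9%) changed by 1.5-fold or more, beside 10.7% of all genes. The median log2 fold change of the 14 was -0.30 and the median absolute change 0.54. SORL1, a sorting receptor that binds retromer, had 215, 239.9 and 224 normalised counts at 500 nM, against 529, 523 and 519 with DMSO (log2 fold change -1.21, adjusted p = 1.58e-31). TGOLN2, which cycles between the trans-Golgi network and the surface, had 1625, 1621 and 1590.5, against 2965, 3012 and 3011 (log2 fold change -0.89, adjusted p = 3.53e-44). SORT1, the lysosomal sorting receptor sortilin, had 944, 950.3 and 870.4, against 1545, 1658 and 1579 (log2 fold change -0.79, adjusted p = 3.69e-32). The groups did not overlap for any of these 3. The 5 genes of the list called higher, named after their values were seen, were SLC2A1 (0.64), STEAP3 (0.55), IGF2R (0.17), M6PR (0.15) and LRP10 (0.076). M6PR was called under 22 of 24 alternatives, and its call ended without the third DMSO or the second 500 nM library (adjusted p 0.0653 to 0.0815). LRP10 was called under 19 of 24, and its call ended without the second DMSO library, without the second or the third 500 nM library, with DESeq2 and in a fit to the groups compared (adjusted p 0.0554 to 0.194). The list was chosen with earlier results known, and its difference from the 43 members was not tested.

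**Figure D4:**
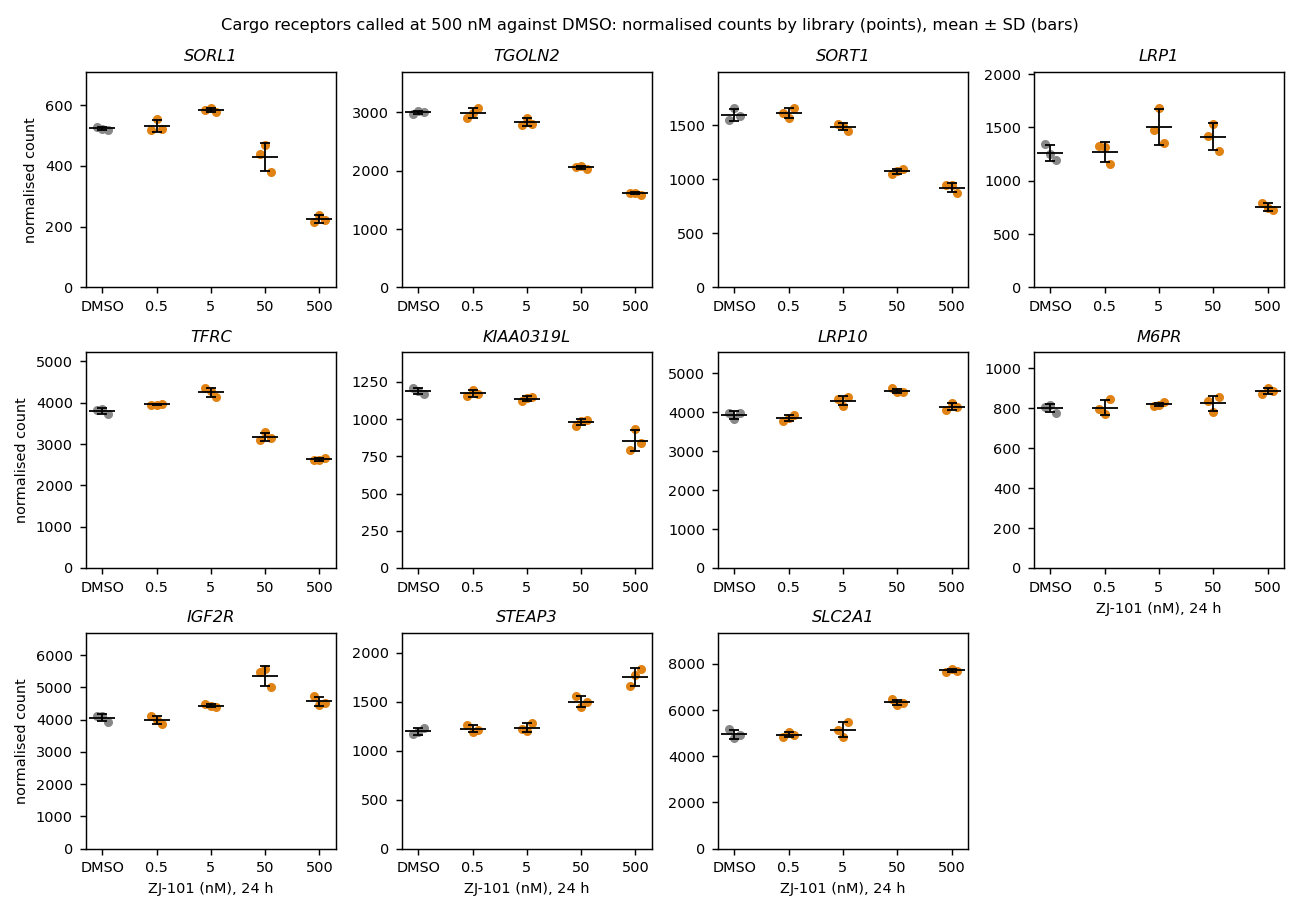
Normalised counts (vertical axes, from 0) of 11 of the 12 genes of the endosomal cargo receptor list called at 500 nM against DMSO, by dose (horizontal axes), where each point is 1 library and bars give the mean ± SD of 3 libraries. SORL1 sits at 215 to 240 at 500 nM, below the 519 to 529 of DMSO, and SLC2A1 sits at 7661 to 7782, above 4777 to 5159.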

How the data were processed

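RNA of pooled MDA-MB-231 spheroids was measured in 15 libraries. Per the study's methods, the authors aligned paired-end 150 bp reads to hg38 with HISAT2, counted genes with htseq-count and normalised with DESeq2; tool versions, the annotation release and the strand setting are not given in the sources used here. The deposited signal values are counts divided by a size factor per library, and 100.0% of them were whole multiples of 1 step (tolerance 0.001), so the authors' read counts could be recovered. The deposited tables of each dose against DMSO hold the authors' fold changes and p-values and were not used.

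Groups came from the sample titles. limma 3.58.1 (R 4.3.3) was fitted to log2 of the signal plus a pseudocount of 1 for 15233 genes whose mean reached 10, with an intensity trend, robust moderation and all 5 groups in 1 model, and p-values are two-sided. The slope used the 12 treated libraries. On simulated data for 500 nM against DMSO, run on 15233 genes, the fit found 46 of 80 genes changed by 1.2-fold, 80 of 80 changed by 1.5-fold and 40 of 40 changed by 2-fold, and called 16 of 15033 unchanged genes. The simulation gave all genes 1 common biological coefficient of variation, 3.72%, and changed only better expressed genes. It held no deviant library and no fibroblast transcripts, so its rates need not hold for the data. Confidence intervals (95%) cover the spread between libraries. Alternatives were edgeR 4.0.16 and DESeq2 1.42.0 on recovered reads, TMM scaling, a pseudocount of 5, no filter, a mean of at least 50, a fit to the groups compared, a replicate block, leaving out each library, and leaving out the 3 libraries rich in fibroblast transcripts. Positions and transcript lengths came from GENCODE 44, promoters from RefSeq.

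The members and all lists were chosen with earlier results of these data known. Described with every value were members called in any test and, in each subgroup, the one with the smallest p at 500 nM; from other lists, up to 4 called genes with the smallest p. Some genes that this rule selects are not reported here.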

Additional observations from a re-analysis of the deposited data

How the results depend on the processing

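Of 42 calls of single members in a dose, step or slope, 21 held under every alternative run: at 500 nM those of VPS35, VPS26B, HGS, TSG101, CHMP6, EHD1, EHD2 and EHD4, at 50 nM those of the 3 EHD genes, and none at 5 nM. The others kept their direction but missed the threshold under at least 1 alternative each, 1 result (PDCD6IP at 500 nM) newly passed it and 1 uncalled result (EEA1 at 500 nM, log2 fold change -0.0083 without the first DMSO library and 0.11, the highest, without the second) changed sign. The cause was not tested.

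The count of 3 members called at 5 nM was 1 with no filter, with a fit to the groups compared and with DESeq2, and 0 to 5 when single libraries were left out (0 without the first or the third 5 nM library, 5 without the second, 1 without the first or second DMSO library and 2 without the third). The count of 7 at 50 nM ran from 4 (without the first 50 nM library) to 7, and that of 11 at 500 nM from 9 to 12. The 3 members called in the step from 0.5 to 5 nM came to 1 with DESeq2 and to 1 to 4 without single libraries (1 without the first or the third library of either dose, 2 without the second at 0.5 nM), and the 3 in the step from 50 to 500 nM came to 5 in a fit to the groups compared and to 0 to 4 without single libraries (0 without the third 500 nM library, 1 without the second 50 nM or second 500 nM library, 2 without the first 50 nM library). The F-test over the groups called 14 members, and 8 with DESeq2, beside 5942 of 15233 and 4383 of 15226 genes. At 5 nM the count of 1053 over all genes was 855 of 31740 with no filter, 800 with a fit to the groups compared and 636 of 11096 with DESeq2. In the step from 0.5 to 5 nM DESeq2 called 652 of 8735 genes, against 1076 of 15233. From 50 to 500 nM the fit to the groups compared called 2068, against 1934. For fits without single libraries no count over all genes is given.

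Replicate numbers did not pair the samples: deviations of libraries with the same number correlated with r from -0.12 to 0.18 (median 0.0026, 30 pairs). With a replicate block the counts were 0, 3, 8 and 12 at 0.5 to 500 nM, 3, 4 and 4 in the steps, 14 for the F-test and 10 for the slope. Among all genes the block gave 14, 1064, 3148 and 4958 at 0.5 to 500 nM and 1098, 2838 and 1940 in the steps. The F-test then called 5943 genes and the slope 4027. Over all 15233 genes TMM scaling shifted the median log2 fold change at 500 nM to 0.0012, against -0.00023. In the simulated data, changes of about 1.2-fold were found only in part. Far fewer genes were changed there than were called at 500 nM, so the adjusted threshold was stricter than in the data.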

Other observations

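The cargo receptors TFRC and IGF2R did not follow dose in order. TFRC, the transferrin receptor and a classical recycling cargo, was called higher at 5 nM (4346, 4289.7 and 4128 normalised counts, against 3821, 3846 and 3716 with DMSO; limma, log2 fold change 0.16, adjusted p = 4.76e-05) and lower at 500 nM (2609.6, 2611 and 2664; -0.53, adjusted p = 9.14e-30). IGF2R, which carries lysosomal enzymes and returns through retromer, was highest at 50 nM (5466, 5567 and 4999.8, against 4107, 4119 and 3925 with DMSO; 0.40, adjusted p = 8.45e-20) and less raised at 500 nM (0.17). LRP1, an endocytic receptor for many ligands, had 791, 743 and 727 normalised counts at 500 nM, against 1345, 1249 and 1195 with DMSO (-0.74, adjusted p = 4.99e-05), while its change at 50 nM was not called (log2 fold change 0.16, adjusted p = 0.291). For LRP1 a departure from dose order was thus not shown. These 3 were named after their values were seen.

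RAB4B, a paralog of RAB4A at a low level, was called lower at 50 nM (limma, log2 fold change -1.33, adjusted p = 0.00940), where its libraries held 1.88, 13.4 and 7.09 normalised counts, against 15.2, 15.4 and 19.1 with DMSO, and it was not called at 500 nM (-0.43, adjusted p = 0.459).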
